A study of Mus musculus with 4 samples.

Results

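Proliferating mouse erythroblasts carrying a short hairpin RNA (shRNA) against Setd8 were compared with proliferating erythroblasts carrying a non-targeting shRNA. The comparison was taken as the rows of the deposited table that pair these libraries, and it covered all 23234 genes of the table in 2 of the series' 4 samples. The cells, called extensively self-renewing erythroblasts, are young precursors of red cells that divide for long in culture and mature once moved to another medium. The maturing cells named below are control cells. The labels give the cells no strain, sex or age, and they do not say whether each shRNA line came from a single clone or a pool. Control cells kept for 6 h in maturation medium were used for a further value beside the pair, and the maturing knockdown sample was not analysed here. The maturing value is given beside the pair without a test, since its comparison shares the proliferating control library. Each group had 1 library, so no difference has a replicate check, and an effect of the hairpin, of the cell line that carries it and of the single library cannot be told apart.

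Setd8 adds the first methyl group to lysine 20 of histone H4, a mark of compact chromatin that also takes part in cell division. In red cell precursors the transcription factor Gata1 takes over from Gata2 as cells mature, and Gata2 with Mitf also serves the mast cell and basophil branch of blood formation. Mast cells store histamine, proteases and proteoglycan in granules and bear the receptor for immunoglobulin E.

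Levels are FPKM, the fragments on a transcript divided by its length in kilobases and by the size of the library, so they can be compared between genes. The total number of fragments is not given by FPKM. From the step that 1 fragment makes in 1807 genes of very low level, the knockdown library had 1.44 times the depth of the control library. Changes of level are log2 ratios of knockdown over control. A gene is said to be called when the authors' deposited table gives a q-value of at most 0.05. The standard error (SE) quoted for a log2 ratio is that of the authors' model, recovered from their ratio and test statistic. Since the labels name no replicates, it does not measure the spread between cultures.

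The target came first. Setd8 (chromosome 5, 124889938 to 124912316, mm9) was at 25.1 FPKM in control cells and 9.28 FPKM in knockdown cells, with 25.9 FPKM in maturing cells. The knockdown library is the low library of the 3, at 37.0% of the control. The log2 ratio in the authors' deposited table was -1.43 (SE 0.42, q = 0.0122).

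Erythroblast markers were detected in both libraries, at a lower summed level in knockdown cells. Of 14 rows for erythroblast markers, 13 reached 1 FPKM in a library, and 11 of these 13 had a lower value in knockdown cells, with a median of -0.88 for the log2 ratio of FPKM + 1. Gata1 was at 52.8 FPKM in control cells and 61.1 FPKM in knockdown cells. Klf1, a transcription factor of red cell genes, was at 60.1 and 34.1 FPKM, and Tfrc, the transferrin receptor, at 34.0 and 18 FPKM. None of these 3 was called by the authors' deposited table. Over the list, 4 of 14 tested markers were called lower and none higher there, against a background of 3.24% of tested genes called lower and 5.81% called higher. The markers had summed levels of 1933 FPKM in control, 810.4 FPKM in knockdown and 3079 FPKM in maturing cells. These sums include the adult globin rows, so they do not weigh the markers equally. The called members were Spna1, a spectrin of the red cell membrane skeleton, at 4.84 and 0.124 FPKM, Alas2, at 4.55 and 0.0900 FPKM, and the rows of Hba-a1 with Hba-a2 and of Hbb-b1 with Hbb-b2, the adult globins. The globin rows name near-identical copies together. Markers of 4 other cell groups were near 0. No neutrophil marker of 10, macrophage marker of 9, lymphocyte marker of 10 or stromal, endothelial and liver marker of 12 reached 1 FPKM in either library. Their summed levels were 0.0656 and 0.0519 FPKM for neutrophils, 1.19 and 1.34 FPKM for macrophages, 0.118 and 0.0747 FPKM for lymphocytes, and 0.05 and 0.237 FPKM for the last group, control before knockdown. A single stromal marker, still under 1 FPKM, was called higher by the authors' deposited table.

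Megakaryocyte, basophil and mast cell, and eosinophil markers had higher summed levels in knockdown cells than in control cells. The 12 megakaryocyte markers summed to 34.2 FPKM in control cells, 59.0 FPKM in knockdown cells and 14 FPKM in maturing cells. Of these markers, 8 were below 1 FPKM in both libraries. Most of the sum in control and in knockdown cells lay in markers not called, of which Gp5 and Gp1ba had the highest mean levels. Of 5 tested, the authors' deposited table called 3 higher, Itga2b at 2.54 and 7.25 FPKM, Gp9 at 0.594 and 2.31 FPKM, and Pf4, listed at 0 in control cells and at 0.378 FPKM in knockdown cells. These genes encode an integrin chain and a glycoprotein of the platelet surface and a platelet chemokine. Vwf, which also marks the lineage, was listed at 0 in control cells and at 0.00182 FPKM in knockdown cells. The summed level of basophil and mast cell markers was 11.9 FPKM in control cells, 185 FPKM in knockdown cells and 5.18 FPKM in maturing cells. Of 11 markers, 9 were tested, and 7 were called higher and none lower by the authors' deposited table. Over all tested genes the shares were 5.81% and 3.24%. The marker Cpa3 reached 1 FPKM in a library, but was less than 2-fold higher on the FPKM + 1 scale and was not called. Several defining members stayed low: Mcpt8, a basophil protease, was listed at 0 in control cells and at 0.0343 FPKM in knockdown cells, and Prss34, another, was listed at 0 in both. Fcer1a, the alpha chain of the IgE receptor, was at 0.136 and 0.339 FPKM and was not called by the authors' deposited table. Fewer cells of a type and less RNA per cell cannot be told apart in bulk RNA, and the part of another cell type in the changes below was not tested. Eosinophil markers split. Prg3, a granule protein gene, went from 0.158 to 9.23 FPKM and Il5ra, a cytokine receptor chain, from 0.0409 to 1.43 FPKM, and both were called higher by the authors' deposited table. Epx, the eosinophil peroxidase, was listed at 0 in control cells and at 0.00331 FPKM in knockdown cells, and Prg2, the neighbour of Prg3, stayed at 0.0158 and 0.0556 FPKM.

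Of 11665 tested genes, 9.05% were called by the authors' deposited table, 678 of them higher and 378 lower. Another 11336 genes were not tested for lack of signal, 153 had too little data and the fit failed for 80, among them Kit. At least 1 FPKM in either library was reached by 9456 genes, of which 533 did so only in knockdown cells and 298 only in control cells. Of the 9456 genes, 3.90% were called higher and 2.01% lower by the authors' deposited table, and the median log2 ratio of FPKM + 1 was -0.05. By size alone, 4.45% were at least 2-fold higher and 2.64% at least 2-fold lower on the FPKM + 1 scale, which understates the change of low genes.

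**Figure D1:**
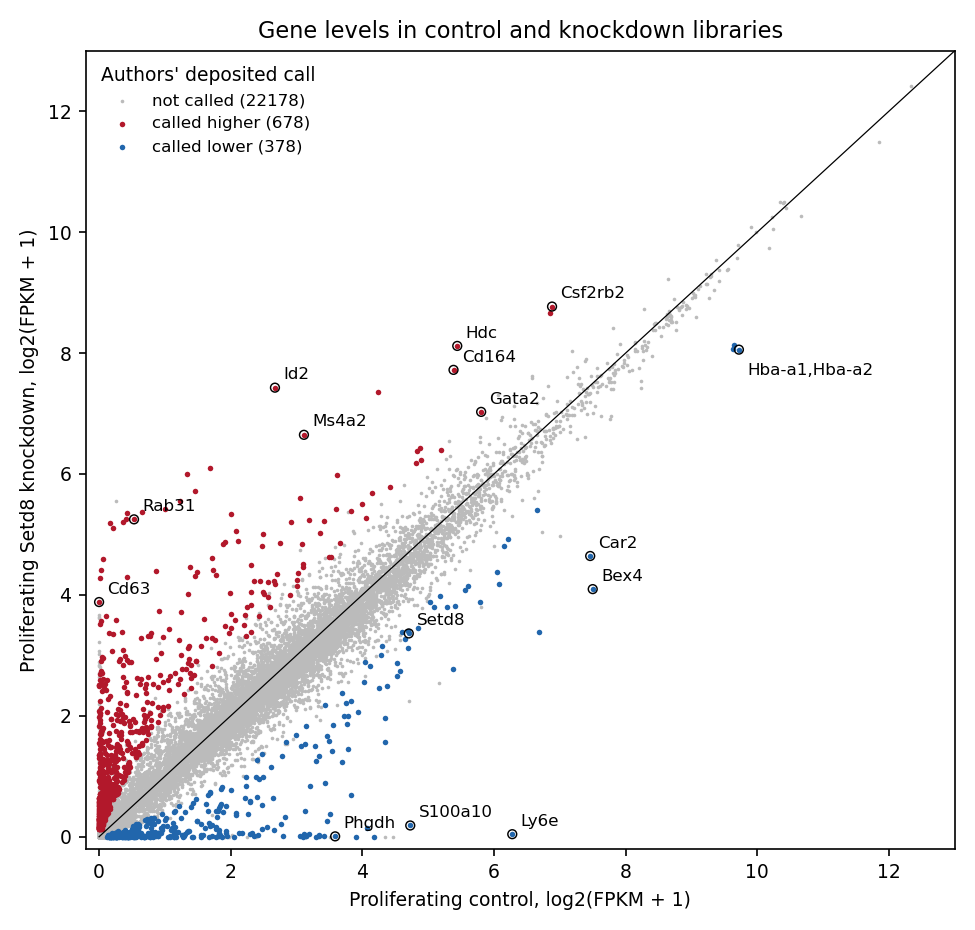
Each point is a gene, placed by log2(FPKM + 1) in the proliferating control (x axis) and the proliferating knockdown (y axis), and coloured by the authors' deposited call; circled genes are named. Most genes lie near the line of equal levels, 678 called genes lie above it and 378 below, and many of these are low in both libraries.

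Calls were not spread evenly over expression levels. Among tested genes whose higher library was between 0.1 and 1 FPKM, 13.4% were called higher and 8.24% lower by the authors' deposited table. Between 5 and 20 FPKM it called 2.62% and 1.52%. The median SE fell from 0.58 to 0.48 between these classes, and was 0.38 for genes at 100 FPKM or more. A list of low genes therefore has a higher background of calls than a list of abundant genes. For the list counts below, the background is the share over all tested genes, 5.81% higher and 3.24% lower. It is repeated in brackets beside most counts, in the order of the counts, and is not matched for level.

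**Figure D2:**
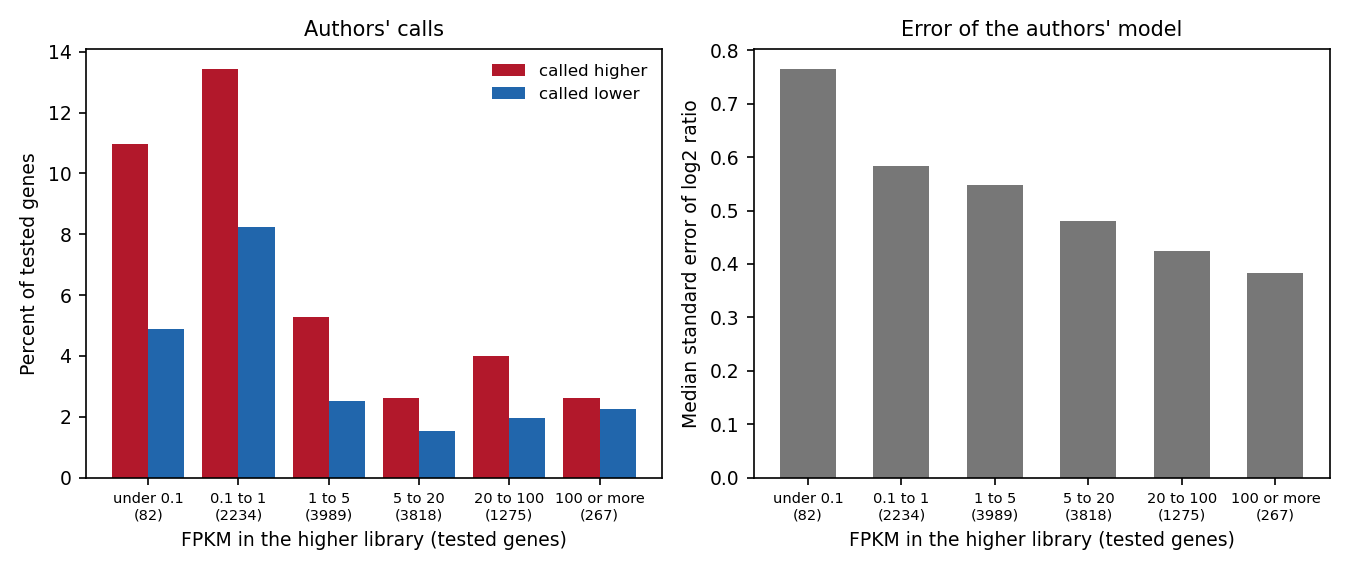
The left panel gives the percent of tested genes that the authors' table called higher or lower, by FPKM in the higher of the 2 libraries; the right panel gives the median standard error of the log2 ratio in the authors' model. Genes between 0.1 and 1 FPKM have the highest share of calls, 13.4% higher and 8.24% lower, and the error falls as the level rises.

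Receptors were called in both directions. Of 26 tested haematopoietic cytokine receptors, 6 were called higher and 2 lower by the authors' deposited table, where 5.81% of all tested genes were called higher and 3.24% lower. Csf2rb2 gained the most FPKM among rows that name a single gene, with predicted genes and short RNAs left out. It stood at 117 FPKM in control cells, 435 FPKM in knockdown cells and 63.4 FPKM in maturing cells, and its neighbour Csf2rb at 114, 406 and 62.1 FPKM. The pair encodes signalling chains for GM-CSF and related cytokines, and since the genes are close copies, the split of fragments between them is uncertain. The authors' deposited table gave Csf2rb2 a log2 ratio of 1.90 (SE 0.36, q = 4.66e-06). The ligand-binding partner Il3ra went from 0.0529 to 0.381 FPKM and was called higher by the authors' deposited table, while Csf2ra, at 1.31 and 2.93 FPKM, was not called. Il1rl1, the receptor for an alarm cytokine that mast cells respond to, stood at 16.7 FPKM in control cells, 50.5 FPKM in knockdown cells and 4.19 FPKM in maturing cells. Its log2 ratio in the authors' deposited table was 1.60 (SE 0.43, q = 0.00413). Il9r, the receptor for another mast cell growth cytokine, moved the other way, from 13.2 to 0.623 FPKM, with 11.6 FPKM in maturing cells. Il9r had a log2 ratio of -4.41 (SE 0.48) and was called lower by the authors' deposited table. Epor, the erythropoietin receptor, was at 17.6 and 8.58 FPKM and was not called there (q = 0.239).

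The receptor chain Ms4a2 is the beta chain of the IgE receptor. It stood at 7.65 FPKM in control cells, 99.3 FPKM in knockdown cells and 2.42 FPKM in maturing cells. The log2 ratio in the authors' deposited table was 3.70 (SE 0.48, q = 1.43e-12). The other chains of that receptor did not reach 1 FPKM in either library, and Fcer1g, the shared gamma chain, was at 0.0266 and 0.0185 FPKM. Of 18 tested genes of Fc receptor signalling, 3 were called higher and none lower (background 5.81%, 3.24%) by the authors' deposited table. The kinase Lyn was level at 10.9 and 10.5 FPKM, and the kinase Syk was below 0.01 FPKM in both libraries.

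The Cd200 receptor genes, inhibitory and activating receptors of myeloid cells, lie next to each other on chromosome 16 and were called higher together. Cd200r1 was at 0.0264 FPKM in control cells and 5.51 FPKM in knockdown cells, Cd200r2 at 0.0273 and 4.29 FPKM, Cd200r3 at 0.0189 and 10.8 FPKM, and Cd200r4 at 0.0468 and 6.74 FPKM. In the maturing control Cd200r1 and Cd200r3 were listed at 0 and the other 2 were below 0.01 FPKM. Cd200r3, a receptor found on mast cells and basophils, had a log2 ratio of 9.16 (SE 1.16) in the authors' deposited table. Some paired Ig-like receptors on chromosome 7 were also called higher by the authors' deposited table. Lilrb3 went from 2.30 to 23.5 FPKM, Lilra6 from 2.75 to 28.5 FPKM and Pira6 from 3.23 to 32.1 FPKM. These copies resemble each other, so their separate levels are uncertain. Pira1, at the same locus as Lilra6, was listed at 0 in all 3 libraries. Of 17 listed inhibitory and paired receptors, 12 were below 1 FPKM in both libraries. Of 7 tested, 6 were called higher and 1 lower (background 5.81%, 3.24%) by the authors' deposited table.

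Of 16 tested receptors for chemokines, purines, histamine and lipids, 7 were called higher and 2 lower (background 5.81%, 3.24%) by the authors' deposited table. Gpr65, a receptor that senses acidity, was at 1.36 FPKM in control cells, 45.7 FPKM in knockdown cells and 0.0354 FPKM in maturing cells. Adora3, an adenosine receptor through which mast cells are activated, was at 8.14, 36.8 and 4.27 FPKM in the same order. The histamine receptor Hrh4 was at 0.223, 3.05 and 0.295 FPKM, and the sphingosine phosphate receptor S1pr2 at 0.892, 5.36 and 0.662 FPKM. Each of these 4 was highest in knockdown cells and called higher by the authors' deposited table. Cxcr4, the receptor that holds blood progenitors in the marrow, was called lower there, at 2.18 FPKM in control cells and listed at 0 in knockdown cells.

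Of 16 tested integrins and adhesion genes, 5 were called higher and 1 lower (background 5.81%, 3.24%) by the authors' deposited table. Itgb7, a chain of the integrins that bring mast cell progenitors into tissues, stood at 2.44 FPKM in control cells, 19.1 FPKM in knockdown cells and 2.32 FPKM in maturing cells. The authors' deposited table gave it a log2 ratio of 2.97 (SE 0.49, q = 6.33e-08). Itga9 went from 0.0151 to 3.37 FPKM. Itga5, the alpha chain of the fibronectin receptor, was the member called lower by the authors' deposited table, at 2.43 and 0.123 FPKM. Itga4 and Itgb1, its erythroid companions, were at 10.7 and 7.23 FPKM and at 18.7 and 20.7 FPKM, and neither was called by the authors' deposited table.

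Genes for making biogenic amines were unequal. Hdc, which makes histamine, was at 42.5 FPKM in control cells, 277 FPKM in knockdown cells and 28.7 FPKM in maturing cells. Ddc, the decarboxylase that completes serotonin and dopamine synthesis, was at 0.0719, 11.6 and 0.0296 FPKM. Ddc had a log2 ratio of 7.33 (SE 0.60) in the authors' deposited table. Tph1, the first enzyme of serotonin synthesis outside the brain, was abundant in all 3 libraries at 234, 253 and 277 FPKM, and Slc18a2, which loads amines into vesicles, was at 2.98, 4.05 and 2.07 FPKM. Neither was called by the authors' deposited table. Over the list, 4 of 8 tested genes were called higher and none lower there. Lipid mediators showed opposite calls for related enzymes. Alox5, the lipoxygenase that starts leukotriene synthesis, was called lower by the authors' deposited table, at 31.6 and 13.7 FPKM (q = 0.0444), and Alox15 was called higher, at 0.00523 and 2.70 FPKM. The Alox5 partner Alox5ap was at 29.7 and 27.4 FPKM, and none of 6 prostaglandin enzymes reached 1 FPKM.

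Granule and lysosome genes followed. Of 30 tested genes of granule exocytosis, 6 were called higher and none lower (background 5.81%, 3.24%) by the authors' deposited table. Rab31, a GTPase of membrane traffic, stood at 0.445 FPKM in control cells, 37.0 FPKM in knockdown cells and 0.441 FPKM in maturing cells. Rab32, which serves lysosome-related organelles, was at 0.239, 6.46 and 0.200 FPKM. Rab27b, which docks granules, was at 1.75, 18.9 and 0.578 FPKM, and Mlph, an effector of the Rab27 proteins, at 1.12, 5.30 and 1.11 FPKM. The knockdown lay above both controls for each of these 4 genes. Cd63, a membrane protein of granules and late endosomes, was listed at 0 in control cells and stood at 13.7 FPKM in knockdown cells and 0.0224 FPKM in maturing cells. Cd63 was called higher by the authors' deposited table (q = 0.00121). Of 13 tested fusion genes 1 was called higher there, Lyst, a regulator of lysosome size, at 0.203 and 0.680 FPKM. The fusion protein gene Vamp8 was at 92.6 and 87.0 FPKM and Unc13d, a Rab27 effector, at 17.5 and 19.4 FPKM, and neither was called by the authors' deposited table. Srgn, the proteoglycan core that packs granules, was at 223 and 341 FPKM and was not called there (q = 0.636).

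Hexa, which encodes a chain of a lysosomal enzyme that mast cells release with histamine, was called higher by the authors' deposited table. Hexa was at 1.01 FPKM in control cells, 41.9 FPKM in knockdown cells and 0.982 FPKM in maturing cells. The authors' deposited table gave Hexa a log2 ratio of 5.37 (SE 0.48). Grn, which encodes progranulin, went from 9.24 to 31.5 FPKM, and Galc, a lysosomal galactosidase outside the list, from 4.93 to 14.5 FPKM. Ctsc, a cathepsin that activates granule proteases, was called lower by the authors' deposited table, at 12.6 and 2.66 FPKM. Ctsd, an abundant lysosomal protease, was level at 93.6 and 94.4 FPKM. In all, 3 of 23 tested lysosomal genes were called higher and 4 lower (background 5.81%, 3.24%) by the authors' deposited table.

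**Figure D3:**
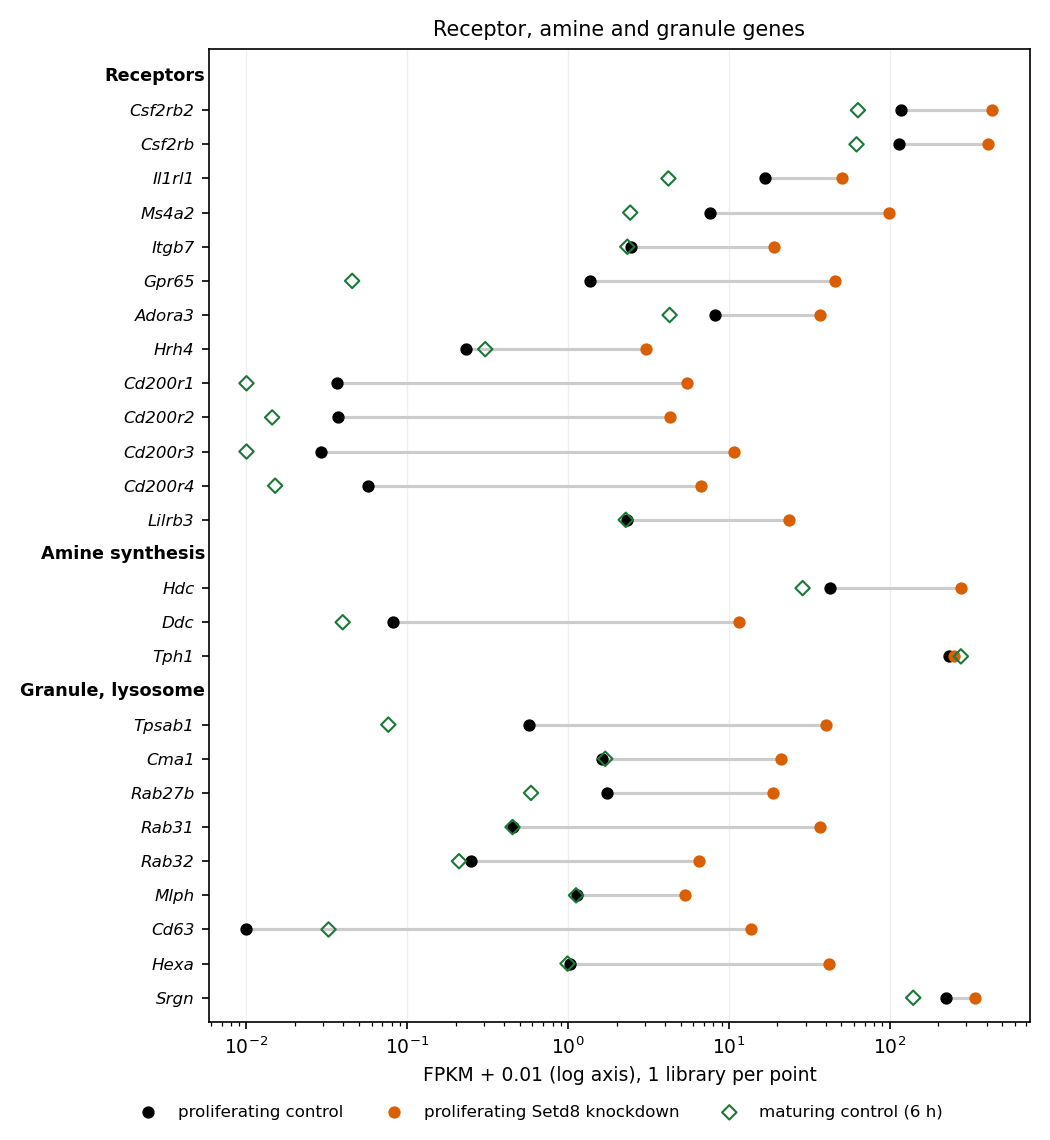
Levels of receptor, amine and granule genes in the proliferating control (black), the proliferating Setd8 knockdown (orange) and the control after 6 h in maturation medium (open green diamonds), as FPKM + 0.01 on a log axis, 1 library per point. For most genes the knockdown lies to the right of both controls, while Tph1 is nearly level, and Cd63 is listed at 0 in the proliferating control.

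The upstream windows of Ms4a2 and Cd200r3, called higher, and of Alas2, the erythroid gene for the start of haem synthesis and called lower by the authors' deposited table (4.55 to 0.0900 FPKM), are shown because all 3 hold words that GATA factors are known to bind. Each is the 250 bases before the RefSeq start site in GRCm38.p6, written 5′ to 3′ on the gene's strand, and capitals mark AGATAA or TGATAA or their reverse complements TTATCT and TTATCA. The windows are chr19:11623720-11623969 on the minus strand for Ms4a2, chr16:44943428-44943677 on the plus strand for Cd200r3 and chrX:150547167-150547416 on the plus strand for Alas2.
Ms4a2: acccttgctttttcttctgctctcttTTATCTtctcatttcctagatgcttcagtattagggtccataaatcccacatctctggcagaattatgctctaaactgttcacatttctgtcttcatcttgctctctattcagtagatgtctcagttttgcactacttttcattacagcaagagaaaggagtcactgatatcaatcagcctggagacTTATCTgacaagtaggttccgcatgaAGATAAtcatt
Cd200r3: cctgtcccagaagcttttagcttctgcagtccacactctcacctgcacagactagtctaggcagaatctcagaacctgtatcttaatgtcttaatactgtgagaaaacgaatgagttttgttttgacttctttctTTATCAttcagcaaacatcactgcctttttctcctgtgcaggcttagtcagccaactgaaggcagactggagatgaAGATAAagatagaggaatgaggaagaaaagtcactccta
Alas2: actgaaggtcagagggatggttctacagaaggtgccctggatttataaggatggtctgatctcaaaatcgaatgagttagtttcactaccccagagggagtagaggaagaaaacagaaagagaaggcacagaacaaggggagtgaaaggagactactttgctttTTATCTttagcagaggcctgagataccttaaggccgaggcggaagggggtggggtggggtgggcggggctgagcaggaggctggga
Ms4a2 has 3 such words, starting at -224, -37 and -11 from the start site, Cd200r3 has 2, at -115 and -39, and Alas2 has 1, at -86. A match of letters is not a bound site. In windows from 250 bases before to 50 after the start site, a word on either strand was found for 60 of 290 genes called higher (20.7%), 25 of 153 called lower (16.3%) and 824 of 7113 not called (11.6%) by the authors' deposited table. These genes were at 1 FPKM or more in either library and had a window in the RefSeq table. A gene was counted if any of its windows held a word. Over all 32851 windows of that table the share was 18.6%. That share is per window, with no filter on level, so it is not like the shares per gene.

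Transcription factors were largely level. Of 60 tested haematopoietic factors, 4 were called higher and 2 lower by the authors' deposited table, close to the background. Gata2 was at 54.9 FPKM in control cells, 129 FPKM in knockdown cells and 29.6 FPKM in maturing cells, with a log2 ratio of 1.24 (SE 0.37, q = 0.0156) in the authors' deposited table. Its cofactor Zfpm1 moved the other way, at 22.7, 5.70 and 38.6 FPKM. Mitf, a factor of mast cells, was at 0.135, 1.09 and 0.184 FPKM. Sfpi1, which encodes PU.1, was at 21.5 and 22.3 FPKM, and Gfi1b, a repressor of red cell precursors, at 80.7 and 54.8 FPKM, and neither was called by the authors' deposited table. Outside that list, Hoxc4 and its neighbour Hoxc5 were called higher there. They went from 0.0144 to 5.06 FPKM and from 0.00477 to 1.85 FPKM, and both lie in the homeobox cluster of chromosome 15. Foxp1, a forkhead repressor, went from 1.54 to 7.74 FPKM and Klf6 from 3.66 to 11.7 FPKM.

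The inhibitors and coactivators without their own DNA contact differed within each family. Id2, which blocks E proteins, was at 5.37 FPKM in control cells, 171 FPKM in knockdown cells and 2.41 FPKM in maturing cells. Id1 was at 11.6, 14.5 and 7.81 FPKM and was not called by the authors' deposited table. Cited1, a coactivator, was at 0.127, 35.7 and 0.101 FPKM, against 5.16, 7.33 and 2.25 FPKM for Cited2 and 26.2, 16.2 and 71.5 FPKM for Cited4. The list that holds these families also held helix-loop-helix factors, which made up 16 of its 21 tested genes. Over the whole list, 3 were called higher and none lower (background 5.81%, 3.24%) by the authors' deposited table. The calls were Id2, Cited1 and the helix-loop-helix factor Hes1.

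Genes of the Notch pathway were called in both directions. Dtx4, a ubiquitin ligase of the pathway, was at 0.0408 FPKM in control cells, 23.2 FPKM in knockdown cells and 0.0319 FPKM in maturing cells. The Notch targets Hes1 and Nrarp went from 0.555 to 5.13 FPKM and from 1.07 to 3.46 FPKM. Lfng, which modifies Notch receptors, was called lower by the authors' deposited table, at 4.24 and 0.985 FPKM, and the receptor Notch1 was near 0.02 FPKM in both libraries. In the TGF-beta and BMP group, Smad1 was called higher at 1.22 and 5.55 FPKM and the repressor Tgif1 lower at 2.59 and 0.426 FPKM by the authors' deposited table. Over the 3 pathways (Notch, Wnt, TGF-beta and BMP together), 6 of 32 tested genes were called higher and 4 lower there (background 5.81%, 3.24%).

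Among 17 tested RGS proteins and G-protein subunits, 4 were called higher and 1 lower (background 5.81%, 3.24%) by the authors' deposited table. Gng2, a gamma subunit, was at 0.345 FPKM in control cells, 18.7 FPKM in knockdown cells and 0.139 FPKM in maturing cells. Rgs13, which limits mast cell signalling, was at 0.0906, 5.05 and 0.0359 FPKM. Rgs10 was the member called lower by the authors' deposited table, at 22.1 and 5.33 FPKM.

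Other genes with high ratios had varied roles, and those given here were called higher by the authors' deposited table. Serpinb1a, an inhibitor of granule proteases, was at 0.344 FPKM in control cells, 40.1 FPKM in knockdown cells and 0.0238 FPKM in maturing cells, and its close copies Serpinb1b and Serpinb1c were called higher with it. Pmp22, a membrane protein known from myelin, was at 0.162, 33.6 and 0.0889 FPKM. Slc31a2, a copper transporter, went from 2.22 to 67.6 FPKM, and the export pump Abcc2 from 0.0247 to 20.2 FPKM. Chst1, a sulphotransferase, went from 1.75 to 51.4 FPKM, Gyg, the primer of glycogen, from 0.819 to 20.1 FPKM, and the GTPase regulator Arhgap30 from 0.00936 to 10.5 FPKM. Creb3l1, a membrane-bound transcription factor, went from 2.99 to 39.7 FPKM. The proteases Mmp14 and Plau went from 0.197 to 11 FPKM and from 0.253 to 6.71 FPKM. In the maturing control the 8 genes from Slc31a2 on lay between 0.00874 FPKM (Abcc2) and 2.60 FPKM (Creb3l1), below the knockdown in each case.

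Red cell enzymes outside haem synthesis were among the lower genes. Of 22 tested genes of that list, 7 were called lower and 3 higher (background 3.24%, 5.81%) by the authors' deposited table. Car2, the main carbonic anhydrase here, stood at 175 FPKM in control cells, 24 FPKM in knockdown cells and 269 FPKM in maturing cells. Its log2 ratio in the authors' deposited table was -2.87 (SE 0.40, q = 5e-11). The neighbouring Car1 was at 12.7, 1.74 and 13.4 FPKM. Hemgn, a nuclear protein of red cell precursors, was at 6.11, 0.251 and 16.0 FPKM, and Pklr, the red cell pyruvate kinase, at 12.8, 3.0 and 18.3 FPKM. The knockdown was the lowest of the 3 libraries for all 4 genes. Other carbonic anhydrases moved up: Car7 went from 0.730 to 9.37 FPKM and Car13 from 0.0117 to 1.56 FPKM, both called higher by the authors' deposited table. Bpgm, which makes the red cell's oxygen-affinity regulator, was level at 4.42 and 4.78 FPKM, and Blvrb was at 115 and 93.7 FPKM. The 11 rows of globin genes made up 1.52% of summed FPKM in control cells, 0.516% in knockdown cells and 2.29% in maturing cells.

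Among regulators of globin switching, 2 of 13 tested genes were called lower and none higher (background 3.24%, 5.81%) by the authors' deposited table. Igf2bp3, a fetal RNA-binding protein, went from 1.51 to 0.0526 FPKM and Sox6, a partner of Bcl11a, from 0.184 to 0.0439 FPKM. Bcl11a itself was at 14.9 and 7.04 FPKM and was not called there (q = 0.524), and Myb was at 42.2 and 66.4 FPKM.

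Some surface and cytoskeletal genes were nearly lost. Ly6e, a lipid-anchored surface protein (chromosome 15, 74785480 to 74790335, mm9), was at 76.6 FPKM in control cells, 0.0297 FPKM in knockdown cells and 71.2 FPKM in maturing cells. Ly6e had a log2 ratio of -11.33 (SE 0.76) in the authors' deposited table. Its neighbours were listed at 0 in knockdown cells, from 17.1 FPKM in control and 10.2 FPKM in maturing cells for Hemt1, and from 13.9 and 8.21 FPKM for Gml. With Cd59a, an inhibitor of complement that went from 2.48 to 0.255 FPKM, these made up the 4 members of 5 tested that were called lower in the Ly6 superfamily by the authors' deposited table. S100a10, the partner of annexin A2, was at 25.5, 0.138 and 16.2 FPKM, whereas Anxa2 itself was at 5.39, 12.5 and 1.84 FPKM and was not called there. The related S100a1 was called higher, at 4.63 and 31.0 FPKM. Of 43 tested genes of actin and intermediate filaments, 5 were called higher and 4 lower (background 5.81%, 3.24%) by the authors' deposited table. Parvb, which links integrins to actin, went from 9.74 to 0.00462 FPKM and the calponin Cnn3 from 9.09 to 0.0178 FPKM. Lcp1, an actin bundler of white cells, went from 1.19 to 0.0476 FPKM. The tropomyosin Tpm4 and the muscle filament gene Des were called higher by the authors' deposited table, from 0.712 to 8.96 FPKM and from 1.38 to 12.1 FPKM. The abundant members Actb, at 337 and 248 FPKM, and Actg1, at 299 and 184 FPKM, were not called there.

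Of 6 tested genes of the Bex and Tceal family, 4 were called lower and none higher (background 3.24%, 5.81%) by the authors' deposited table. Bex4 stood at 180.0 FPKM in control cells, 16.1 FPKM in knockdown cells and 131 FPKM in maturing cells. Bex6 was at 102.1, 9.45 and 74.5 FPKM, Bex1 at 19.2, 1.95 and 15.7 FPKM, and the related Tceal8 at 5.81, 0.159 and 6.23 FPKM. The members not called were Ngfrap1, at 55.0 and 47.7 FPKM, and Bex2, at 1.98 and 1.81 FPKM. Among imprinted genes, Phlda2 and Grb10, which restrain growth, were called lower by the authors' deposited table. Phlda2 went from 19.8 to 4.66 FPKM and Grb10 from 2.57 to 0.0211 FPKM. Slc22a18, the neighbour of Phlda2 in the same imprinted domain, was called higher there, at 0.752 and 3.61 FPKM. Of 19 tested imprinted genes, 4 were called higher and 3 lower (background 5.81%, 3.24%) by the authors' deposited table. Taken with the Bex and Tceal family, 7 genes were called lower and 4 higher of 25 tested there (background 3.24%, 5.81%). H19 was listed at 0 in both libraries and Igf2 was below 0.01 FPKM in both.

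In most metabolic lists a few members were called and the others were not. Phgdh, which opens serine synthesis, was at 11 FPKM in control cells, 0.00434 FPKM in knockdown cells and 5.39 FPKM in maturing cells. The next enzymes Psat1 and Psph were at 54.2 and 42.1 FPKM and at 13.1 and 6.5 FPKM, and neither was called by the authors' deposited table. Over 18 serine and one-carbon genes at 1 FPKM or more, 16 had a lower value and the median log2 ratio of FPKM + 1 was -0.36, beside -0.05 over all genes, with 1 called lower of 19 tested by the authors' deposited table. Amino acid carriers were called in both directions. Slc7a8 was at 1.53 FPKM in control cells, 62.9 FPKM in knockdown cells and 0.0568 FPKM in maturing cells, and its heavy chain Slc3a2 at 28.8, 74.2 and 18.4 FPKM. Slc38a1, a glutamine carrier, was at 11.9, 1.36 and 9.97 FPKM and called lower by the authors' deposited table. None of the 14 tRNA synthetases and related enzymes tested was called there, but all 14 had a lower value in knockdown cells. On the FPKM + 1 scale the middle of their log2 ratios was -0.52, beside -0.05 over all genes. They summed to 328 FPKM in control cells, 218 FPKM in knockdown cells and 266 FPKM in maturing cells.

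For nucleosides, Slc28a2, a concentrative carrier, went from 8.17 to 0.0301 FPKM and Cda, which deaminates cytidine, from 7.30 to 0.0138 FPKM, both called lower by the authors' deposited table. The equilibrative carrier Slc29a1 was at 42.0 and 66.3 FPKM and was not called. Fabp5, a fatty acid carrier, and Fgf13, an intracellular growth factor homologue, were at 8.79 and 7.59 FPKM in control cells and listed at 0 in knockdown cells. In sugar metabolism the lactate exporter Slc16a3 went from 3.36 to 0.0417 FPKM, while the glucose importer Slc2a1 was called higher by the authors' deposited table at 1.73 and 5.36 FPKM. The list held 4 genes called lower and 1 higher of 31 tested there (background 3.24%, 5.81%).

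Of 34 tested sterol and fatty acid genes, 2 were called lower and 1 higher (background 3.24%, 5.81%) by the authors' deposited table. Idi1, of the mevalonate pathway, was at 99.2 FPKM in control cells, 41.5 FPKM in knockdown cells and 38.7 FPKM in maturing cells. Insig1, which holds the sterol sensor in the endoplasmic reticulum, was at 7.34, 47.9 and 7.34 FPKM, so the knockdown alone stood apart. A lower value was held by 30 of the 36 members at 1 FPKM or more, and their median log2 ratio of FPKM + 1 was -0.38. Among 28 tested antioxidant enzymes, 3 were called lower and 1 higher (background 3.24%, 5.81%) by the authors' deposited table. Gsta4 went from 40.6 to 5.81 FPKM and the quinone reductase Nqo1 from 12.2 to 3.0 FPKM, while Gstp1 went from 28.3 to 85.7 FPKM together with its close copy Gstp2. The reductase Ptgr1 went from 7.88 to 0.00803 FPKM, and Aldh1a1, an aldehyde dehydrogenase, from 5.28 to 0.0790 FPKM.

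**Figure D4:**
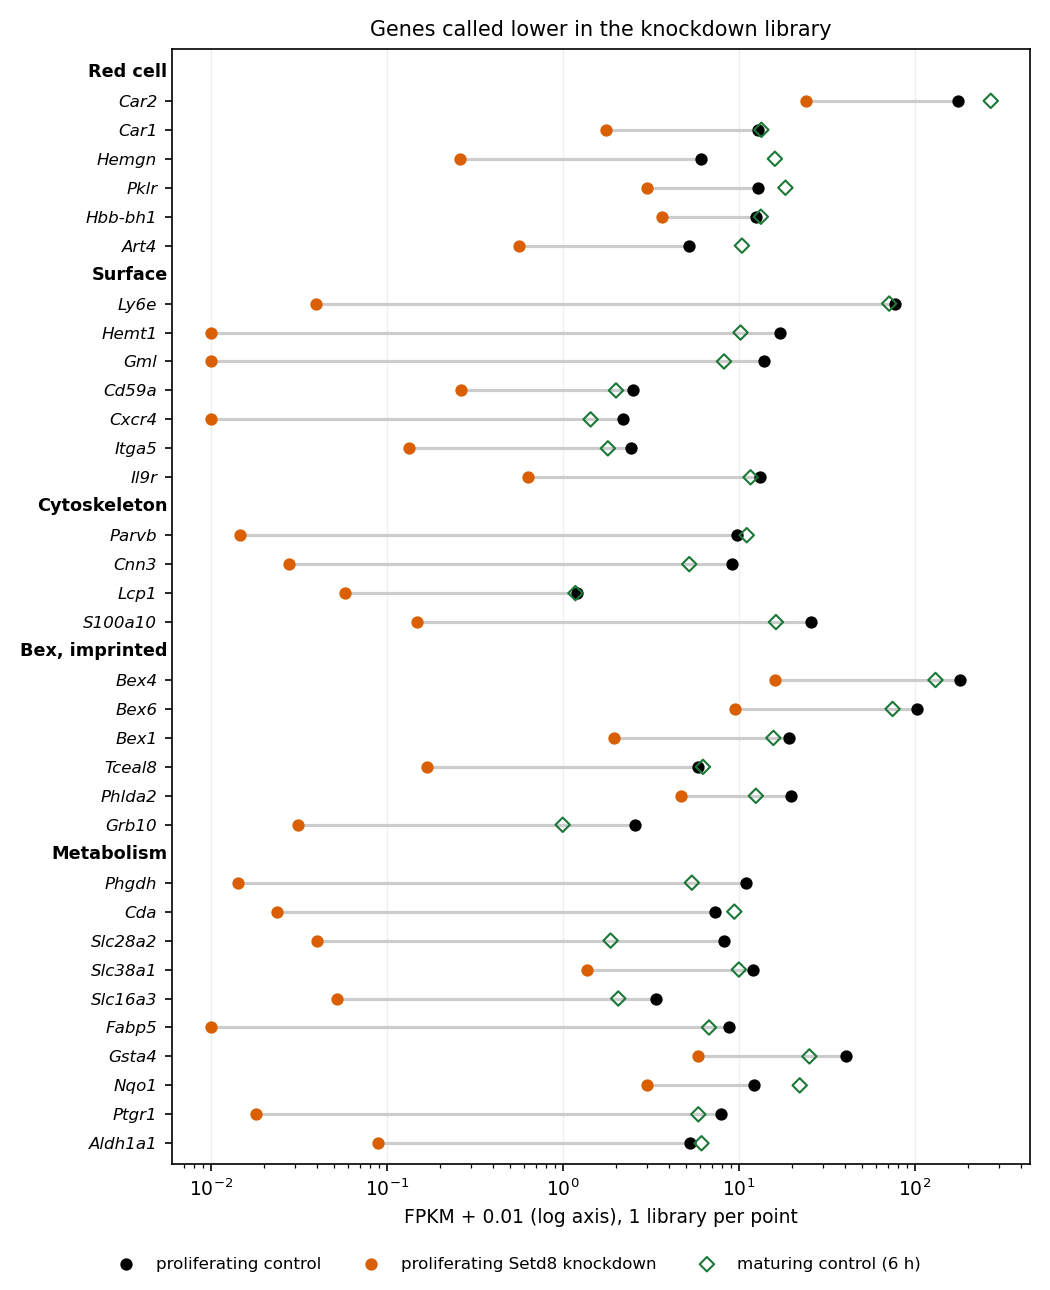
Levels of genes called lower in the authors' table, in the proliferating control (black), the proliferating Setd8 knockdown (orange) and the maturing control (open green diamonds), as FPKM + 0.01 on a log axis, 1 library per point. The knockdown lies to the left of both controls for every gene shown, and Hemt1, Gml, Cxcr4 and Fabp5 are listed at 0 there.

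Several large gene groups held no call by the authors' deposited table. None of 38 tested genes of the DNA damage response, 24 of the Bcl2 family and caspases, 38 of Polycomb, DNA methylation and H4K20 readers, 47 cytosolic ribosomal proteins, 32 mitochondrial ribosomal proteins, 37 proteasome genes and 54 replication-dependent histones was called there. Over all tested genes 5.81% were called higher and 3.24% lower, and between 5 and 20 FPKM 2.62% and 1.52%. At such shares a list of this size holds only a few calls, so a list without a call does not set its genes apart. Chek1, a kinase of the replication checkpoint, was at 3.52 FPKM in control cells and 2.49 FPKM in knockdown cells. Small shifts ran through some of these lists. Mitochondrial ribosomal proteins had a lower value for 31 of 32 genes, and their median log2 ratio of FPKM + 1 was -0.28, and proteasome genes for 33 of 37, with a median of -0.19. Replication-dependent histones had a higher value for 48 of the 51 genes at 1 FPKM or more, with a median of 0.39, and 4 of the 51 passed 1 FPKM only in knockdown cells. Histone copies resemble each other, so these are not 51 separate measurements. The median over all genes at 1 FPKM or more was -0.05. Among G1 cyclins, Cdk inhibitors and E2F genes, 2 of 32 tested were called higher and 3 lower by the authors' deposited table. Cdkn2b, at 1.14 and 0.0847 FPKM, was called lower with its neighbour Cdkn2a.

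**Figure D5:**
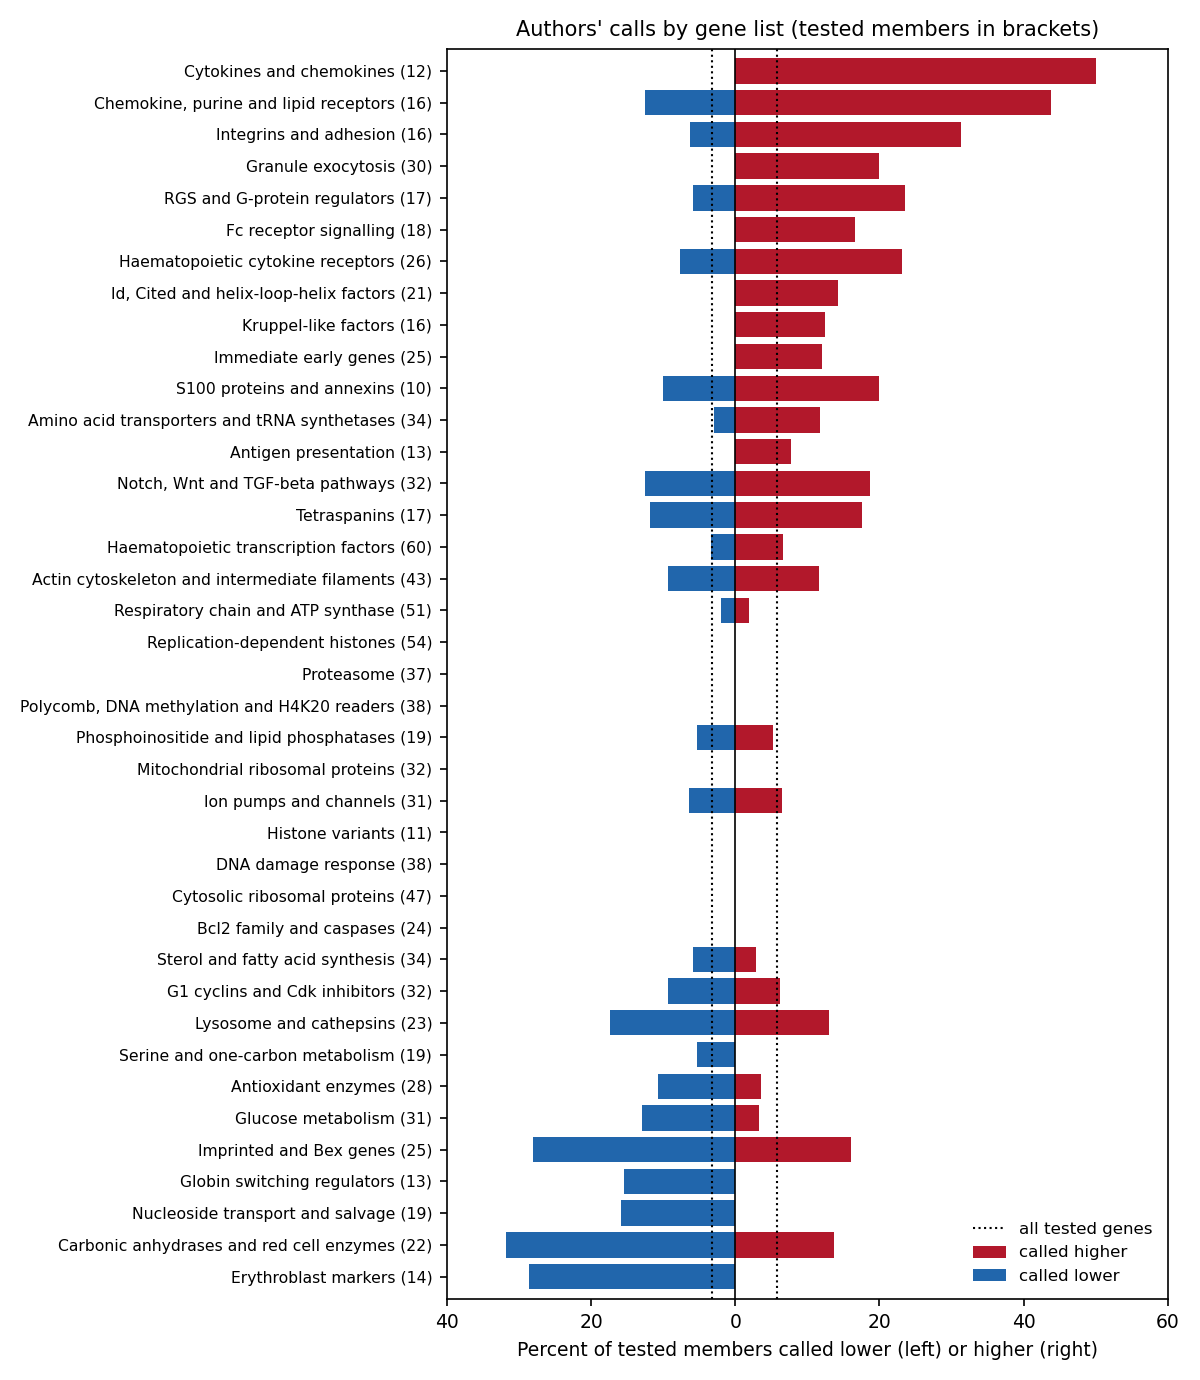
For each gene list with at least 10 tested members (number in brackets), bars give the percent called higher (red, right) and lower (blue, left) in the authors' table, and dotted lines give the shares over all tested genes, 5.81% and 3.24%. Cytokine and receptor lists lie furthest to the right, red cell lists furthest to the left, and 8 lists without a bar hold no call. In the cytokine and chemokine list, 37 of 43 genes were below 1 FPKM in both libraries. Its summed level was 74.4 FPKM in control cells and 76.9 FPKM in knockdown cells.

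By position, called genes at 1 FPKM or more made up 9.04% of those on chromosome 19 and 2.87% on chromosome 5, the highest and lowest shares of any chromosome, against 5.91% over all by the authors' deposited table. Neighbouring genes called in the same direction formed 63 runs of 147 genes, 16 of them with 3 or more genes, 12 higher and 4 lower. Neighbours were taken among genes at 1 FPKM or more in either library, with no limit on the distance between them. Whether the share of called genes alone would give as many runs was not tested. Many of these runs are families of similar copies, such as Serpinb1a, Serpinb1c and Serpinb1b, or Gstp1 and Gstp2, whose fragments may be shared. On chromosome 14, Cma1, Cma2, Mcpt4 and a pseudogene of the mast cell protease cluster formed a run, Cma1 going from 1.61 to 21.0 FPKM and Cma2 from 0.118 to 1.41 FPKM. The longest run had 5 lower genes on chromosome 15 from 73553574 to 74790335 (mm9) and ended at Ly6e. It began with Ptp4a3, a phosphatase, at 23.3 and 9.47 FPKM. Ptp4a3 ended at 73589196 and the next gene of the run began at 74551663. Runs of unlike genes included Mical1, Smpd2 and Cd164 on chromosome 10, where Cd164, a mucin-like adhesion protein, stood at 40.8 FPKM in control cells, 210.1 FPKM in knockdown cells and 38.2 FPKM in maturing cells. Mical1, which oxidises actin, went from 0.679 to 9.03 FPKM and Smpd2 from 0.380 to 1.79 FPKM. On chromosome 8, the kinase Jak3 and its neighbour Fcho1 were called higher by the authors' deposited table, at 0.730 and 2.79 FPKM and at 0.967 and 8.92 FPKM.

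In FPKM summed over genes, called genes carried 28.9% of all gains and 16.5% of all losses, with calls from the authors' deposited table. Some of the largest losses, in abundant genes, were not called. Ftl1, a ferritin chain, was at 1619 FPKM in control cells and 1226 FPKM in knockdown cells, and Hspa8, a chaperone, at 536 and 385 FPKM. Among gains, Laptm5, a lysosomal membrane protein of blood cells, was at 399 and 597 FPKM and was not called there. Short RNAs and predicted genes among the extremes were counted but not named. Like rows naming several genes, they were left out of the rankings by ratio and by FPKM.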

How the data were processed

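The labels' protocols name commercial kits for RNA extraction and for the libraries. The submitters' processing notes name FastQC 0.10.1, Cufflinks 2.0.2, Cuffdiff and mm9. For the aligner and annotation, nothing was given in the sources used here. A single table of 65535 rows comparing pairs of libraries was deposited by the authors, and its values per library were read as FPKM, since the notes name Cuffdiff, which writes that unit. Each row also holds a p-value and a q-value, per the file headers. The deposited log2 ratio (left out where a value is 0) lay within 0.000109 of the ratio recomputed from FPKM, and the size of its ratio to the deposited test statistic gave the SE. The knockdown library was matched by its target and by the number in its title, which the labels do not explain and whose title begins like a control's.

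No test was run, since each group had 1 library. Log2 ratios used FPKM + 1. Gene lists (52, with 1519 entries, of which 1515 matched a row and 10 of these by a RefSeq synonym), members and the naming rule were chosen with earlier results of these data known. The rule names Setd8 and Gata2, the 25 highest and 25 lowest ratios among called genes at 5 FPKM or more in a library, the 15 largest gains and losses, up to 6 called and 2 uncalled members per list, runs of 3 or more neighbours, and genes listed at 0 in 1 library and at 5 FPKM or more in the other. Other members, and genes named outside a list (Galc, Hoxc4, Hoxc5, Foxp1 and Pira6 among them), were chosen after their values were seen, as were the 3 sequences printed. Alternatives were other q-values, filters, pseudocounts and scalings. The size step was tested on simulated data. The tools were Python 3.11.15, pandas 2.3.3, numpy 2.4.6 and, for figures, matplotlib 3.10.9. Some genes are not reported here.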

Additional observations from a re-analysis of the deposited data

How the results depend on the processing

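The number of genes called in the authors' deposited table depended on the filter more than on its threshold. Of the 678 higher and 378 lower calls, 369 and 190 had 1 FPKM or more in either library, 158 and 89 had 5 FPKM or more, 112 and 64 had 1 FPKM or more in both libraries, and 319 and 172 also had a log2 ratio of FPKM + 1 of at least 1. With a q-value under 0.01 both counts stayed within 1.5 times. Genes at least 2-fold higher and lower numbered 421 and 250. They numbered 135 and 87 with a pseudocount of 5, 234 and 147 at 5 FPKM in either library, and 179 and 126 at 1 FPKM in both. Centring on the median ratio gave 67.6% higher among them against 62.7%. Each filter has fewer genes by construction. Of the 47 gene lists with at least 3 members at 1 FPKM or more, 8 had a median of 0.5 or more and 2 of -0.5 or less. A pseudocount of 5 left 5 of the former, no filter left 1 of each, and 1 FPKM in both libraries left 1 of the latter. Means in place of medians gave 12 of the former and 4 of the latter. The 63 runs of neighbours numbered 21 at 5 FPKM or more. No list median of 0.5 or more in size changed sign, and 370 of 420 medians under the alternatives stayed within 0.25 of the main value. Some large medians moved further. That of basophil and mast cell markers, 2.98, was 1.10 with no filter and 3.66 with a pseudocount of 0.1. The megakaryocyte median of 0.94 was 0.01 with no filter. Only the relative depth of the libraries was estimated, and no limit was computed for a gene listed at 0. No paired analysis was possible because each group had 1 library.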
